A study of Psammomys obesus with 8 samples.

Results

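The insulin-like growth factor Igf1 and 4 of its binding proteins, Igfbp2, Igfbp3, Igfbp4 and Igfbp5, were examined for DNA methylation in the hypothalamus of the fat sand rat, *Psammomys obesus*, a desert rodent that grows obese on energy-rich laboratory food. The members were 27 assembled sand rat contigs, of 548060 in the table, whose best mouse match lay inside one of these 5 genes (distance 0 to the gene in the contig name). The 5 genes were chosen by name with the captured read counts of this contrast, a low Igfbp3 total in standard-low among them, already known. The comparison that follows is the same contrast, so the Igfbp3 values are given as a description and support nothing by themselves.

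Methylated DNA had been captured with MethylMiner, in which a methyl-CpG binding domain holds double-stranded fragments, and sequenced. The 4 standard-low libraries carry the diet label Standard Lipid and the 4 low-low libraries the diet label Low lipid. All 8 came from males aged 16 weeks, and the series calls the contrast one of paternal diet in its design text and of parental diet in its title. The labels do not say whether libraries came from separate animals or litters, and every p-value below therefore rests on a spread between libraries that may be technical. Reads over all contigs totalled 11646180 to 12156525 in the standard-low libraries and 12528388 to 13533441 in the low-low libraries. A captured read count reflects methylation, the density of CpG sites and the amount of underlying sequence together, and no uncaptured input was used here.

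IGF1 is a growth factor made in liver and also locally in the brain, where it acts through the IGF1 receptor on neurons and glia. The binding proteins hold IGFs outside cells, carry them, and limit or prolong their access to the receptor. IGFBP2 is a major binding protein of brain and cerebrospinal fluid, and IGFBP3 carries most circulating IGF1 in a complex with the acid-labile subunit. IGFBP4 mainly inhibits IGF action until the protease PAPP-A cleaves it, and IGFBP5 also binds the extracellular matrix.

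The contigs of Igf1, Igfbp2 and Igfbp3 with the largest mean CPM show what was measured. Of each, the 120 bases with the most CpG sites are printed as deposited, with every CpG in capitals. The Igf1 window holds 8 CpGs, the Igfbp2 window 6 and the Igfbp3 window 7. By their mouse matches the contigs lie at chr10:87913458-87914061 (Igf1, plus strand), chr1:72827545-72828345 (Igfbp2, plus strand) and chr11:7208368-7208604 (Igfbp3, minus strand). The build of these mouse positions is not stated in the labels or file, and the exons and introns around them were not analysed here.
Igf1 contig 3749148: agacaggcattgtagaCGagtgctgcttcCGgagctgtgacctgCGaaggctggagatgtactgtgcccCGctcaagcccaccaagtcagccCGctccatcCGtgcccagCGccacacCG
Igfbp2 contig 161158: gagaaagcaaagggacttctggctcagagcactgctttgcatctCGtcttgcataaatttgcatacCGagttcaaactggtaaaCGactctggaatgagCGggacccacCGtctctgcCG
Igfbp3 contig 54826: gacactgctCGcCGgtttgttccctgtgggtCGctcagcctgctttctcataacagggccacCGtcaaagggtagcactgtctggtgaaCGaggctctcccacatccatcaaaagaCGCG

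The family relationship is visible in the contigs themselves. Over 63 bases, Igfbp5 contig 1870304 and Igfbp3 contig 54826 were 84.1% identical. The pair is shown with the 10 differing bases in capitals, the Igfbp5 stretch as its reverse complement.
Igfbp5 contig 1870304: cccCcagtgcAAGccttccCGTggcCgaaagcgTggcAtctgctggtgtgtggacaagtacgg
Igfbp3 contig 54826: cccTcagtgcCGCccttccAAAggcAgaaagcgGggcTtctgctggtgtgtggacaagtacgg

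One Igfbp3 contig differs in structure from the others. Contig 815619 matched Igfbp3 contig 54826 over 162 bases (93.8% identity) and Igfbp3 contig 4354620 over 94 bases (95.7%). In contig 815619 these matches run from base 109 to 270 and from base 268 to 361, overlapping by 3 bases, whereas each of the other contigs continues with bases that contig 815619 lacks. The join is printed with matched bases in capitals, contig 815619 as its reverse complement. Contig 815619 holds in joined form sequence that is separate in the other contigs, and it is assigned to Igfbp3 only through a mouse match at chr11:7210020-7210246 (plus strand) covering 33.6% of its length. Its bases 3 to 110 matched a further contig, 3263183, at 91.7% identity, and that contig has no mouse match. Whether contig 815619 lies within Igfbp3 in the sand rat genome was not tested, so its place in the Igfbp3 sum is uncertain.
Igfbp3 contig 815619: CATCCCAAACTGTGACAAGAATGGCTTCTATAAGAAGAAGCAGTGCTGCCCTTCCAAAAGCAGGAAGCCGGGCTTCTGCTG
Igfbp3 contig 4354620: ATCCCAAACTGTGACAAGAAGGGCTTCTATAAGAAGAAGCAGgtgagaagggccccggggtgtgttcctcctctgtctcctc
Igfbp3 contig 54826: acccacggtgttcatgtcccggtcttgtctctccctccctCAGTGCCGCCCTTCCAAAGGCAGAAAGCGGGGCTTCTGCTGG

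Together the 27 contigs span 15618 bases and 372 CpGs, with 5 contigs in Igf1, 7 in Igfbp2, 3 in Igfbp3, 9 in Igfbp4 and 3 in Igfbp5. Their lengths run from 296 to 1270 bases and their mean counts per library from 10.6 to 63.6. The ratio of observed to expected CpGs ran from 0.212 to 0.536, so no contig was rich in CpG for its base composition. CpG density ran from 1.27 to 4.42 per 100 bases, with a median of 2.26, the same as the median of the 125082 contigs in genes, also 2.26. The mouse match covered at least 50% of the contig in 17 of the 27, and 5 rest on a match under 100 bits. In 7 contigs a stretch of at least 50 bases was shared at 80% identity or more with over 50 other contigs of the table. These 7 were Igfbp2 contigs 713942 and 1000023, Igfbp3 contig 54826, and Igfbp4 contigs 1524487, 1606403, 1615959 and 4565448. Igfbp4 contigs 1524487, 1606403 and 4565448 share overlapping mouse matches between positions 99050646 and 99050787 of chromosome 11, so they are not separate places in the gene by that match, and the contigs 1606403 and 1524487 shared a stretch with 8006 and 5652 other contigs.

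Capture per length followed CpG density across the members. The values are CPM (counts scaled by library total and TMM factor) per kb of contig, averaged over the 8 libraries. They ran from 1.44 in Igf1 contig 913718, which has the lowest CpG density, to 8.01 in Igfbp3 contig 54826, which has the highest. Spearman's rho between density and capture was 0.67 over the 27 contigs and 0.51 over the 125082 contigs in genes, given as a description, since all contigs share the same 8 libraries. The Igfbp3 contig 54826 stood at the 98.9th percentile of all contigs in genes, and the joined Igfbp3 contig 815619 at the 7th (1.95 CPM per kb) although its 2.67 CpGs per 100 bases lie above the median. Igfbp3 thus holds the most heavily captured contig of the family and one of its most weakly captured.

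**Figure D1:**
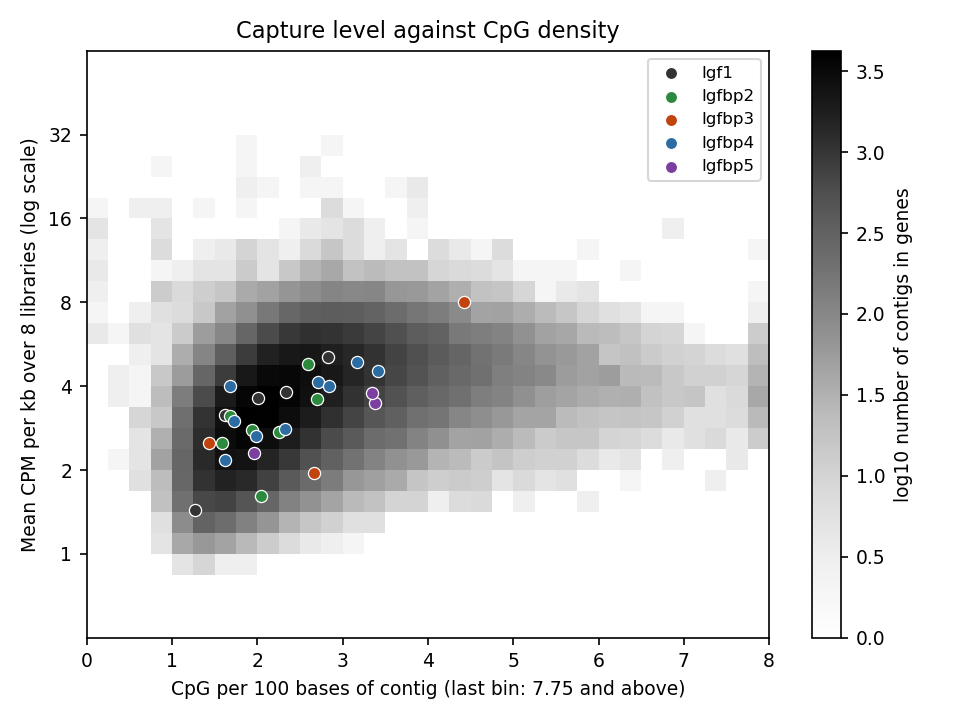
Mean CPM per kb of contig over 8 libraries (log scale) against CpG per 100 bases, for the 27 contigs of the 5 genes (coloured points) over all 125082 contigs in genes (grey, darker where more contigs fall). Igfbp3 contig 54826 lies at the upper right of the points with 4.42 CpGs per 100 bases and 8.01 CPM per kb, and Igf1 contig 913718 at the lower left.

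Summed over their contigs and divided by contig length, the 5 genes lay close together, apart from Igfbp3 in the low-low group. In standard-low libraries the order was Igfbp4 (3.55 ± 0.44 CPM per kb; SD, n = 4), Igf1 (3.45 ± 0.49), Igfbp3 (3.30 ± 0.29), Igfbp5 (3.29 ± 0.42) and Igfbp2 (2.85 ± 0.28), and the library values of each neighbouring pair overlapped. In low-low libraries it was Igfbp3 (4.45 ± 0.31), Igfbp4 (3.51 ± 0.19), Igf1 (3.44 ± 0.12), Igfbp5 (3.32 ± 0.30) and Igfbp2 (2.94 ± 0.19). There the lowest Igfbp3 library (4.10) lay above the highest Igfbp4 library (3.74), while the other neighbours overlapped. Over all 8 libraries Igfbp3 stood at the 59.9th percentile and Igfbp2 at the 16.5th of the 19098 genes with a contig inside. These orders do not allow for CpG density, which was 2.85 per 100 bases in Igfbp3 and 2.02 in Igf1. Per CpG the order over all 8 libraries was Igf1 (0.170 CPM), Igfbp4 (0.148), Igfbp2 (0.138), Igfbp3 (0.136) and Igfbp5 (0.109). Igfbp3 thus did not stand highest by that measure.

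**Figure D2:**
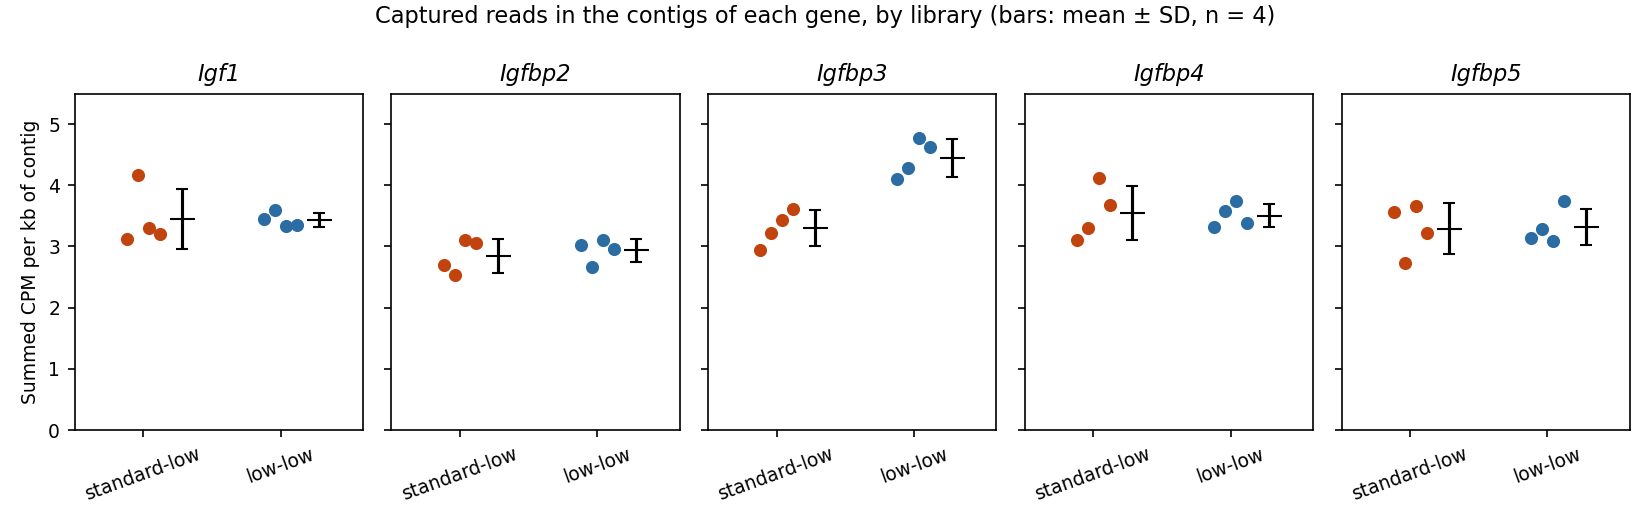
Summed CPM per kb of contig for each gene in each library, standard-low left and low-low right, with the mean and SD of 4 libraries beside the points. The 4 standard-low values of Igfbp3 (2.94 to 3.61) all lie below the 4 low-low values (4.10 to 4.78), and the groups overlap in the other 4 genes.

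No member contig passed the test between groups. With edgeR's quasi-likelihood test, 0 of the 27 contigs had a Benjamini-Hochberg adjusted p under 0.05 over all contigs, where 0.0268% of the table did, and the lowest adjusted p was 0.827. At an unadjusted p under 0.05 there were 3 of 27 (11.1%), against 5.68% of the table, and 2 of these 3 were lower in standard-low, as were 2.76% of the table. DESeq2 called 0 of 27 at an adjusted p under 0.05 (0.00584% of the table) and 1 at an unadjusted p under 0.05 (2.28%). With limma voom the numbers were 0 (0.00912%) and 3 (5.56%). In 0 of 27 did all standard-low libraries lie below all low-low libraries, as in 1.62% of the table. Of the 27, 14 were lower and 13 higher in standard-low, against 49.7% lower in the table, with a median log2 fold change of -0.03, against 0.00 over all contigs. Because the genes were proposed from this contrast, nothing is read from these counts.

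**Figure D3:**
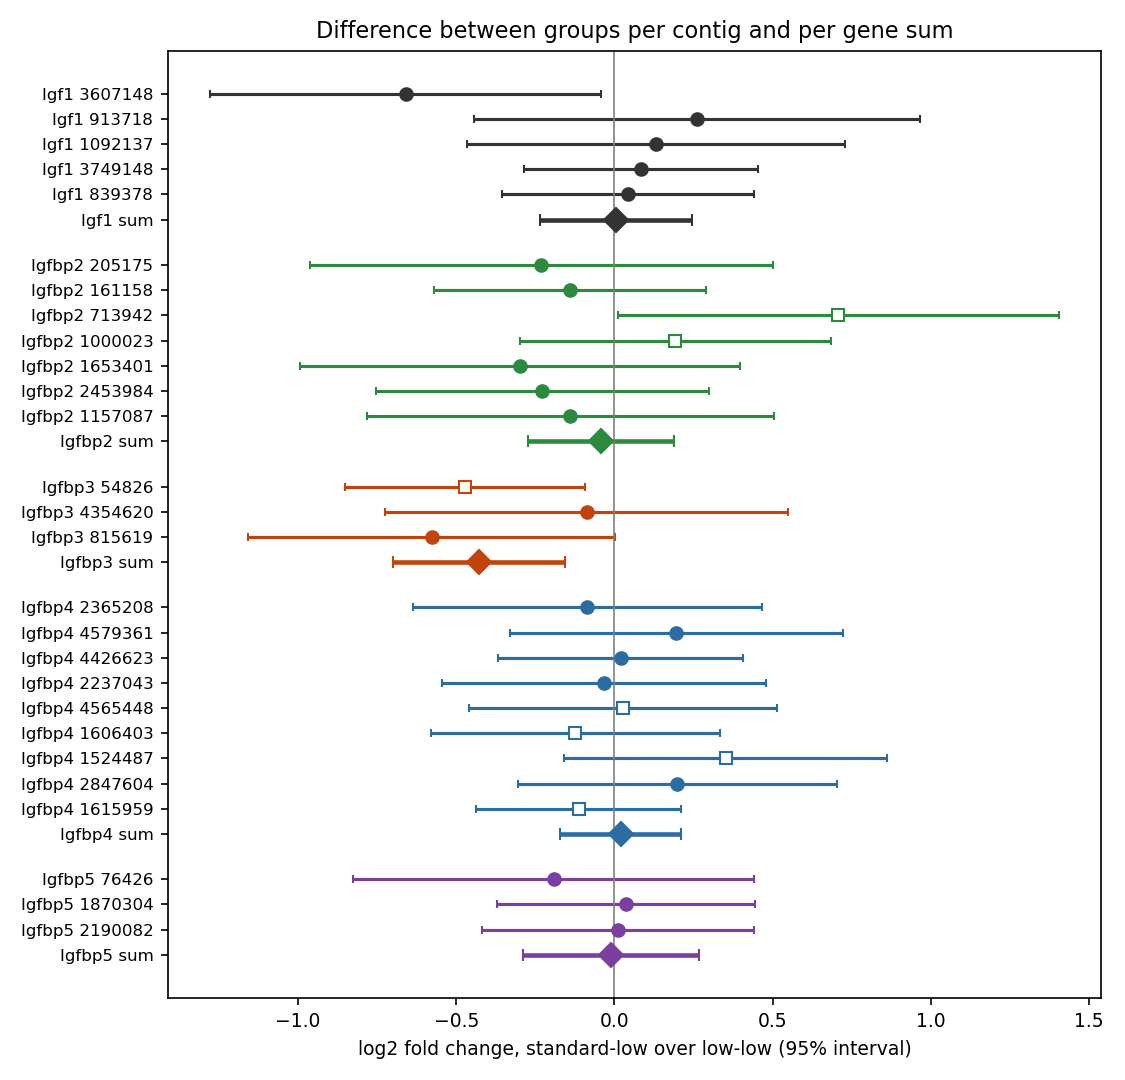
The log2 fold change of standard-low over low-low with its 95% interval from edgeR, for each contig (small symbols, in order of mouse position) and each gene sum (diamonds). Open squares are the 7 contigs that share a stretch with over 50 other contigs; the Igfbp3 sum (-0.43) lies left of 0 and the other 4 sums lie between -0.04 and 0.02.

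Igf1, the ligand, gave almost equal sums in both groups. Its 5 contigs summed to 8.64, 11.6, 9.12 and 8.87 CPM in standard-low libraries 1 to 4, against 9.55, 9.96, 9.23 and 9.29 CPM in low-low libraries 1 to 4. Standard-low 2 was the highest of all 8 and the groups overlapped. The means were 9.55 ± 1.35 and 9.51 ± 0.33 CPM (SD, n = 4 each), a log2 fold change of 0.01 ± 0.12 (SE; edgeR adjusted p over all genes = 0.997) with a 95% interval of the fold from 0.85 to 1.19.

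Within Igf1 the contigs did not move together. Contig 3607148, at chr10:87864681-87864908 and the lowest of the 5 by mouse position, had 0.856, 1.18, 0.663 and 0.845 CPM in standard-low, against 1.68, 1.04, 1.61 and 1.31 CPM in low-low. Standard-low 2 lay above low-low 2, and the remaining standard-low libraries lay below every low-low library. The log2 fold change was -0.66 ± 0.31 (edgeR adjusted p = 0.865, on 42 counts in standard-low and 73 in low-low). The most abundant contig, 3749148, had 3.59, 3.79, 3.73 and 2.96 CPM in standard-low and 3.29, 3.79, 3.05 and 3.15 CPM in low-low, overlapping throughout (log2 fold change 0.08 ± 0.19, edgeR adjusted p = 0.982). The other 3 contigs of Igf1 had log2 fold changes of 0.04 to 0.26.

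Igfbp2, the binding protein abundant in brain, was likewise level between groups as a sum. Its 7 contigs gave 9.16, 8.60, 10.5 and 10.4 CPM in standard-low and 10.2, 9.06, 10.5 and 10.1 CPM in low-low, with overlapping values. The log2 fold change was -0.04 ± 0.11 (edgeR adjusted p = 0.961), with a 95% interval of the fold from 0.828 to 1.14. Without contigs 713942 and 1000023, which hold high-copy stretches, the Igfbp2 log2 fold change was -0.19 (edgeR adjusted p = 0.821), an alternative chosen after seeing the data. Igfbp5 lies next to Igfbp2 in the sand rat RefSeq annotation.

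Igfbp2 contig 713942 was the only member contig whose groups did not overlap, a pattern held by 3.24% of the table. It had 0.941, 1.18, 0.995 and 1.18 CPM in standard-low, against 0.688, 0.446, 0.883 and 0.614 CPM in low-low. All 4 standard-low libraries were higher, but on 51 and 34 counts in all, and the log2 fold change of 0.71 ± 0.35 did not pass (edgeR adjusted p = 0.877). Its mouse match at chr1:72828612-72828649 is 38 bases of a 310-base contig, and it shares a stretch with 230 other contigs, so its place in Igfbp2 is uncertain. The most abundant Igfbp2 contig, 161158, had 1.63, 2.19, 2.73 and 3.13 CPM in standard-low and 3.29, 2.23, 2.57 and 2.61 CPM in low-low (log2 fold change -0.14 ± 0.22, edgeR adjusted p = 0.971). Contig 205175 had the widest spread within a group relative to its mean (coefficient of variation 63.6%), from 0.169 to 1.41 CPM in standard-low, on 38 counts there.

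Igfbp3, the main carrier of circulating IGF1, was lower in standard-low. Its 3 contigs summed to 4.54, 4.98, 5.30 and 5.58 CPM in standard-low libraries 1 to 4, against 6.34, 6.61, 7.38 and 7.14 CPM in low-low libraries 1 to 4. Every standard-low library lay below every low-low library, as did 2.07% of all gene sums. The means were 5.10 ± 0.45 and 6.87 ± 0.48 CPM (SD, n = 4 each), on 242 and 357 counts, so standard-low stood at 0.743 of the low-low level with a 95% interval from 0.616 to 0.897. The log2 fold change was -0.43 ± 0.13, and its edgeR adjusted p over all 19098 genes was 0.807, so it did not pass.

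The Igfbp3 difference sat mainly in its most heavily captured contig. Contig 54826, which also shares a stretch with 139 other contigs, had 1.97, 2.78, 3.40 and 3.97 CPM in standard-low, against 3.44, 4.09, 4.50 and 4.84 CPM in low-low. Standard-low 4 overlapped low-low 1, and the other standard-low libraries lay below all low-low libraries. This contig held 60.6% of the Igfbp3 counts and 66.8% of the difference between group means (-1.18 of -1.77 CPM), with a log2 fold change of -0.47 ± 0.19 (edgeR adjusted p = 0.827).

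The joined contig 815619, of uncertain place, gave a further 29.6% of the Igfbp3 difference on 22% of the counts. It had 1.46, 1.10, 1.08 and 0.592 CPM in standard-low and 1.45, 1.49, 1.85 and 1.54 CPM in low-low. Standard-low 1 lay just above low-low 1 and the remaining standard-low libraries lay below every low-low library (log2 fold change -0.58 ± 0.29, edgeR adjusted p = 0.88). Contig 4354620, at chr11:7209170-7209575, had 1.11, 1.10, 0.83 and 1.01 CPM in standard-low and 1.45, 1.04, 1.04 and 0.768 CPM in low-low, with full overlap (-0.09 ± 0.32). Without contig 815619 the Igfbp3 sum had a log2 fold change of -0.385, and without contig 54826 it had -0.36, alternatives chosen after the values were seen. In each of these reduced sums the groups overlapped, so the separation of the full sum was lost.

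**Figure D4:**
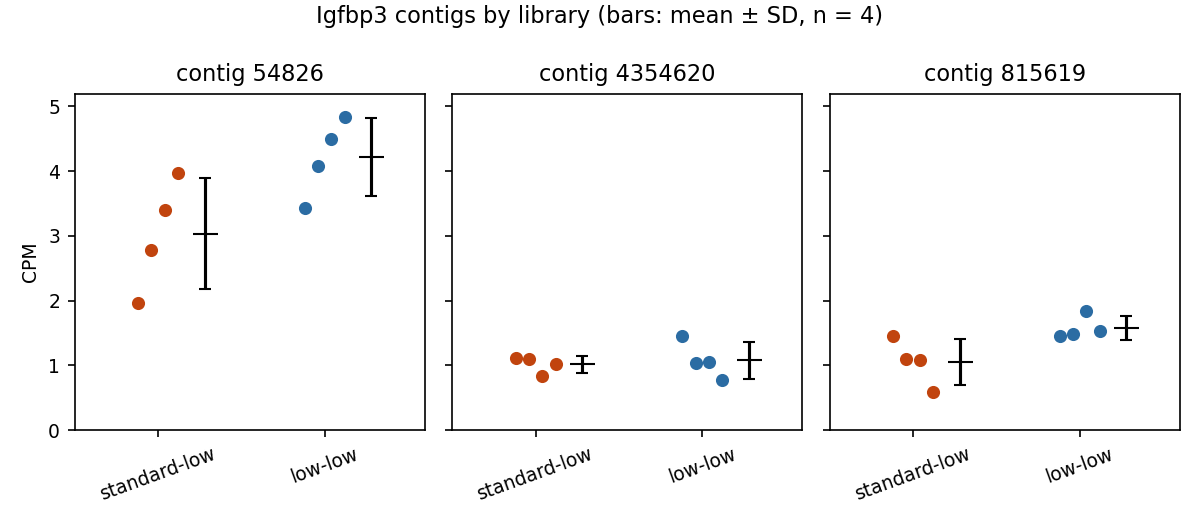
CPM of each Igfbp3 contig in each library, standard-low left and low-low right, with the mean and SD of 4 libraries beside the points. Contig 54826 has the highest level and the largest gap between means (3.03 against 4.21 CPM), and contig 4354620 shows overlapping groups.

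The spread of the Igfbp3 sum between libraries was no wider than counting error. Its coefficient of variation was 8.80% in standard-low and 6.96% in low-low, where counting alone gives 12.9% and 10.6%. Single Igfbp3 contigs in standard-low lay on both sides of counting error. Contig 54826 varied by 28.3% (counting 16.7%), contig 815619 by 33.6% (counting 28.3%) and contig 4354620 by 12.8% (counting 28.9%). From standard-low 1 to 4, contig 54826 rose while contig 815619 fell, so the sum varied less than either. Contig 54826 also rose from low-low 1 to 4 (3.44, 4.09, 4.50 and 4.84 CPM). Whether the library number plays a part in this was not tested. For Igf1 the spread was unequal, at 14.2% in standard-low and 3.46% in low-low, against counting errors of 9.40% and 8.99%. Igfbp4 varied by 12.5% in standard-low and 5.47% in low-low, where counting gives 6.31% and 6.07%. These figures cover reads without molecular identifiers, which are not independent molecules.

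Igfbp4, the inhibitory binding protein, has the most contigs and the most counts of the family. Its 9 contigs summed to 18.6, 19.7, 24.5 and 22.0 CPM in standard-low and 19.8, 21.3, 22.3 and 20.2 CPM in low-low. Standard-low held both the lowest and the highest library, and the groups overlapped. The log2 fold change was 0.02 ± 0.09 (edgeR adjusted p = 0.981), and the 95% interval of the fold, 0.888 to 1.16, is the narrowest of the 5 genes.

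Single Igfbp4 contigs had log2 fold changes from -0.12 to 0.35, with 5 higher and 4 lower in standard-low. Contig 1615959, the longest and most abundant member contig, had 4.11, 4.72, 5.97 and 4.82 CPM in standard-low, against 5.27, 4.90, 6.02 and 5.07 CPM in low-low. The highest libraries of the groups were close together and the groups overlapped (log2 fold change -0.11 ± 0.16, edgeR adjusted p = 0.971). Only 68 of its 1270 bases are in the mouse match. Contig 1524487 had 2.40, 1.69, 2.98 and 1.18 CPM in standard-low and 2.06, 1.49, 1.77 and 1.15 CPM in low-low, with a log2 fold change of 0.35 ± 0.26 (edgeR adjusted p = 0.928), and it is one of the contigs with high-copy sequence.

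Igfbp5, the matrix-binding member, had no contig with an unadjusted p under 0.05 in edgeR and no separation of the groups. Its sum was 6.93, 5.31, 7.13 and 6.25 CPM in standard-low and 6.11, 6.39, 6.02 and 7.30 CPM in low-low. The lowest library was standard-low 2 and the highest low-low 4 (log2 fold change -0.01 ± 0.13, edgeR adjusted p = 0.993; 95% interval of the fold 0.819 to 1.20). Contig 1870304, which carries the stretch shared with Igfbp3, had 2.65, 2.28, 3.90 and 3.30 CPM in standard-low, against 2.52, 2.75, 2.41 and 4.15 CPM in low-low. Unlike its counterpart in Igfbp3 it overlapped fully between groups (log2 fold change 0.04 ± 0.21), though the difference between these contigs was not tested. Contig 76426 had 1.46, 1.01, 0.746 and 0.760 CPM in standard-low and 1.30, 1.11, 1.12 and 0.998 CPM in low-low (-0.19 ± 0.32, edgeR adjusted p = 0.977).

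As gene sums, then, 0 of the 5 genes passed at an adjusted p under 0.05 over all genes (0.00524% of gene sums did), and 1, Igfbp3, had an unadjusted p under 0.05, as did 6.03% of gene sums (4.32% with a lower value in standard-low). The groups did not overlap in 1 of the 5, as in 3.47% of gene sums. DESeq2 called 0 of the 5 (0.0105% of gene sums) and limma voom 0 (0%), with Igfbp3 at an adjusted p of 0.9996 and 0.758. Igfbp3 was also the 1 of 5 with an unadjusted p under 0.05 in DESeq2 (3.01% of gene sums) and in limma voom (6.53%). The gene sums of the whole table leaned slightly to lower values in standard-low, with 58.6% negative and a median log2 fold change of -0.03.

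Contigs outside the genes but nearest to them by mouse position numbered 21, at 6736 to 71546 bases, with none for Igfbp4. None passed with edgeR (lowest adjusted p = 0.736), 2 of 21 had an unadjusted p under 0.05 (5.68% of all contigs), and 7 of 21 were lower in standard-low (49.7% of all contigs). The 5 contigs beyond Igfbp3, at 8596 to 24425 bases, had log2 fold changes from -0.36 to 0.22, with 1 lower. With them added, the Igfbp3 log2 fold change was -0.21, against -0.43 for the contigs inside. In the sand rat annotation the gene next to Igfbp3 is Igfbp1, a binding protein regulated by insulin in liver. Its 4 contigs summed to 8.13, 5.82, 9.86 and 9.38 CPM in standard-low and 8.17, 9.51, 10.8 and 9.68 CPM in low-low, overlapping (log2 fold change -0.20 ± 0.14, edgeR adjusted p = 0.828).

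Of 33 other genes of the IGF and growth hormone system, 31 had a contig inside. With edgeR 0 of these 31 had an adjusted p under 0.05 (0.00524% of gene sums) or an unadjusted p under 0.05 (6.03%). With limma voom 1 had an unadjusted p under 0.05 (6.53% of gene sums) and with DESeq2 0 (3.01%). Values were lower in standard-low in 21 and higher in 10, where 58.6% of all gene sums were lower. The median log2 fold change was -0.03, the same as all gene sums. Igf2, the second IGF ligand, had 7.38 ± 1.02 and 7.21 ± 0.77 CPM (SD, n = 4 each) in standard-low and low-low. Igf1r, the receptor, had 77.9 ± 2.50 and 77.2 ± 2.33 CPM over 35 contigs. The 3 lowest p-values belonged to Igfals, the acid-labile subunit that joins IGFBP3 and IGF1 in blood, to Igfbp6, which prefers IGF2, and to Irs1, a docking protein of insulin and IGF1 receptors. Igfals had 11.7, 9.19, 17.4 and 15.1 CPM in standard-low and 16.1, 17.0, 15.01 and 16.0 CPM in low-low. For Igfbp6 the means were 3.28 ± 0.69 and 4.22 ± 0.91 CPM, and for Irs1 they were 10.5 ± 0.45 and 11.97 ± 0.57 CPM. In Irs1 all standard-low libraries lay below all low-low libraries, as in 2.07% of all gene sums. The edgeR adjusted p over all genes was 0.807 for each of Igfals, Igfbp6 and Irs1.

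The genes whose sums followed each member most closely over the 8 libraries were found by the root mean square difference of centred log2 CPM, among genes with a mean of at least 30 counts. For Igfbp3 they were Gm15964 (0.07) and Afp (0.07), where the median gene differed by 0.27. For Igf1 they were Nrp1 (0.04) and Thsd7a (0.05), and for Igfbp2 Wipi2 (0.03) and Trappc10 (0.03). Igfbp4 was closest to Mmrn1 and Psmc6 (0.04 each), and Igfbp5 to Coq10b (0.04) and Pnliprp1 (0.05). With 15411 genes and only 8 shared libraries such closeness is a description of these libraries.

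DNA does not show which cell types express a gene, so the tissue label could not be checked by expression markers. Captured reads in marker genes of cell types are given instead. Oligodendrocyte marker genes (8 of 8 measured) summed to 74.98 to 97.2 CPM in standard-low and 91.9 to 94.3 CPM in low-low, and neuron marker genes (9 of 10) to 303.6 to 334.0 CPM in standard-low and 316.7 to 325.5 CPM in low-low. Microglia marker genes (6 of 7) summed to 103.2 to 134.5 CPM in standard-low and 125.6 to 130.6 CPM in low-low, with all 6 lower in standard-low. The other lists held markers of astrocytes (7 of 8 measured), endothelium (5 of 6), ependymal cells and tanycytes (4 of 6), pituitary (5 of 8) and blood (4 of 5). Ranges overlapped in each of the 8 marker lists and 0 genes passed with edgeR. In 6 of 8 oligodendrocyte genes the value was lower in standard-low, with a median log2 fold change of -0.23. Of all gene sums, 58.6% were lower in standard-low. An unadjusted p under 0.05 in edgeR was found for 3 of the measured marker genes, a share near the 6.03% of all gene sums. Their log2 fold changes ran from -0.55 to 0.37, beside -0.43 for Igfbp3. The microglia marker Tmem119 had 4.05 ± 0.99 CPM in standard-low and 5.94 ± 0.84 CPM in low-low (SD, n = 4 each; log2 fold change -0.55), with all standard-low libraries lower, as in 2.07% of all gene sums. Sox10, a transcription factor of the oligodendrocyte lineage, had 6.54 ± 1.55 and 8.48 ± 1.09 CPM (-0.37) with overlapping groups. The neuronal gene Stmn2 had 5.69 ± 0.86 and 4.40 ± 0.44 CPM (0.37), with all standard-low libraries higher. Groups that do not overlap, in either direction, were found in 3.47% of all gene sums. For these 3 genes the edgeR adjusted p was 0.807, and the part of cell composition in the Igfbp3 values was not tested.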

How the data were processed

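MethylMiner-captured DNA of 8 hypothalamus samples was counted over assembled contigs. The submitters' processing notes name FastQC, a read quality check, and BWA, an aligner; versions, the assembler, the mouse build and any filter were not given in the sources used here. The deposited counts are whole, unscaled read counts per contig, with a lowest total of 81 over 8 libraries. The header separates library names by spaces and the values by tabs, so columns were taken in header order. Gene names rest on the mouse match in the contig name.

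All contigs were fitted with edgeR 4.0.16 in R 4.3.3 (TMM scaling, glmQLFit and glmQLFTest, two-sided, standard-low over low-low) with Benjamini-Hochberg adjustment over all 548060 contigs, and counts summed per gene were fitted likewise over 19098 genes with the factors of the contig table. Intervals are 95% intervals of the fit. Shared stretches were found with BLAST 2.17.0. Alternatives were DESeq2 1.42.0, limma 3.58.1 voom, other scalings, a filter at a mean of 20 counts, the replicate number as a block and leaving out each library. Named contigs were, in each gene, those with the largest mean CPM and the lowest p; the genes Igf2, Igf1r, Igfbp1 and Igfbp6, the 3 other IGF genes with the lowest p and the 2 genes most alike were also named, and a contig outside this rule was named where its structure or range was singled out after its values were seen. Members, lists and tests were chosen with earlier results of these data known. The sand rat RefSeq annotation was used for gene neighbours alone, and all 5 genes were found in it.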

Additional observations from a re-analysis of the deposited data

Results flagged for a closer look

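Among 64 groups of 4 values examined (the 5 gene sums and 27 contigs in each group), 4 had a library standing far from the other 3, where chance gives about 1 in 20 groups. The Igf1 sum reached 11.6 CPM in standard-low 2, with the next standard-low library at 9.12. Igf1 contig 839378 had 3.15 CPM in low-low 4, against 2.75 in the nearest low-low library. Igfbp2 contig 2453984 had 2.48 CPM in standard-low 1 (nearest 1.26), and Igfbp2 contig 1653401 had 1.69 CPM in low-low 3 (nearest 0.845).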

How the results depend on the processing

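The 5 gene sums and the named contigs passed in none of the alternatives run. Igfbp3 kept a negative log2 fold change in all 19, from -0.47 to -0.21 (adjusted p 0.141 to 0.9996). The 0.141 arose in edgeR without standard-low 3, where 2802 of 19098 gene sums had an unadjusted p under 0.05, against 1151. Leaving out 1 library gave -0.47 to -0.38. Since every standard-low library lay below every low-low library, this could hardly change the sign. Igfbp3 was also chosen with its low standard-low total known, so the steady sign supports nothing. The near-zero sums changed sign in some settings. With limma voom Igf1 had -0.003, with library totals alone Igfbp5 had 0.002, and with contigs of any distance Igfbp2 had 0.043 and Igfbp5 0.019. Read from the most abundant contig alone, Igfbp4 had -0.11 and Igfbp5 0.036. Without high-copy contigs, chosen after seeing the data, Igfbp2 had -0.194, against -0.04, and Igfbp4 0.057, against 0.02. Leaving out 1 library gave -0.10 to 0.05 for Igf1, -0.086 to 0.01 for Igfbp2, -0.059 to 0.078 for Igfbp4, -0.067 to 0.069 for Igfbp5, -0.287 to 0.007 for Igfbp2 contig 161158 and -0.109 to 0.243 for Igfbp5 contig 1870304. Without a change of sign, it gave 0.118 to 0.543 for Igfbp4 contig 1524487, -0.222 to -0.038 for Igfbp4 contig 1615959, -0.43 to -0.077 for Igfbp5 contig 76426 and 0.045 to 0.157 for Igf1 contig 3749148. The cause of these moves was not tested.

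Member contigs at an unadjusted p under 0.05 numbered 3 of 27 in the main edgeR fit (5.68% of the table). With a filter at 20 counts there was 1, beside 12360 of 221973 contigs of the table, and the filter removed others from the test. DESeq2 gave 1 of 27 (2.28% of the table). With the 21 contigs outside the genes added to the 27 there were 5. Without 1 library there were 1 to 2 of 27 (1 without low-low 1 or low-low 4). In those settings 26945 to 41080 of 548060 contigs had such a p. Of the 31 other IGF genes, 0 had an unadjusted p under 0.05 in the main fit. There was 1 with limma voom (6.53% of gene sums) and 2 with the replicate block (1347 of 19098 gene sums). Without 1 library there were 0 to 5, beside 759 to 2802 of 19098 gene sums. The 5 of 31 arose without standard-low 3, where the same was true of 2802 gene sums, against 1151 with all libraries. In that setting 30 gene sums passed adjustment, against 1. Over the table, 147 contigs were called, against 32 with DESeq2, 50 with limma voom, 82 with the mean filter, and from 68 without low-low 2 to 207 without standard-low 3.

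The labels number libraries 1 to 4 in both groups. Deviations of same-numbered libraries correlated at 0.021, 0.035, 0.049 and -0.016. The highest correlation with a library of another number was 0.018, 0.016, 0.025 and 0.044. All of these are small, so they cannot decide whether the numbers pair the libraries. Fitted as a replicate block, Igfbp3 had -0.43 (adjusted p = 0.69), 0 member contigs passed, and 206 contigs of the table did. Few counts per contig limit what could be seen.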
